A study of Mus musculus with 35 samples.

Results

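Nobox, Figla, Sohlh1, Sohlh2, Lhx8, Taf4b and Tbpl2 are transcription factor genes of the female germ line. These 7 genes were taken by name from 21631 protein-coding genes on the 19 autosomes and X, and all 7 were found at their GRCm38 positions. 3 histone modifications had been mapped by CATCH-seq, a native chromatin immunoprecipitation in which micrococcal nuclease cuts the chromatin and carrier DNA limits losses from few cells. H18, a line of mouse embryonic stem cells with the reporters Prdm1-mVenus and Dppa3-ECFP, was the one source of 3 cultured stages: oogonia-like cells called c7 and oocyte-like cells called c13 and c34. Animals were the source of 2 stages, oocytes of E18.5 fetuses that carried these reporters too and oocytes at the germinal vesicle (GV) stage from BDF1 animals, whose age the labels do not give. Every sample was labelled WT and none was labelled with a treatment, and the study's title says that the cultures had no ovarian somatic cells.

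The 7 proteins act at different levels of the same program. Nobox and Lhx8 are homeodomain proteins, Figla, Sohlh1 and Sohlh2 are basic helix-loop-helix proteins that bind E-box sequences, and Taf4b and Tbpl2 belong to the basal transcription machinery, as a subunit of TFIID and as an oocyte form of the TATA-binding protein. In mice, Figla, Sohlh1, Sohlh2, Lhx8 and Nobox are needed to form or keep primordial follicles and to start oocyte growth, Taf4b is needed for a normal oocyte reserve, and Tbpl2 takes the place of TBP in growing oocytes. H3K4me3 lies at active and poised promoters and is known to form broad domains in growing mouse oocytes. H3K27me3 is laid down by Polycomb repressive complex 2, and H3K36me3 accompanies transcription through gene bodies.

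The deposited data were 13 peak lists, with H3K4me3 and H3K36me3 at c13, c34, E18.5 and GV and H3K27me3 at these stages and c7. Behind them the labels listed 9 H3K4me3, 9 H3K27me3, 8 H3K36me3 and 9 input libraries. GV oocytes had only 1 library for H3K4me3 and 1 for H3K27me3, so every GV value of these marks rests on a single library. For c13 H3K4me3 there were 4 libraries, and for each other stage and mark 2. Each stage and mark had 1 list without scores, so no difference could be set against the spread between replicates, no p-value was possible, and read depth was unknown. H3K4me3 peaks lay on a grid of 1 kb and peaks of the other marks on a grid of 10 kb, which limits every width and edge below. The length under H3K4me3 peaks, which by itself raises the share of genes marked, was 254 Mb for c13, 259 Mb for c34, 135 Mb for E18.5 and 645 Mb for GV oocytes. Of 5 germ cell marker genes, Ddx4, Dazl, Dppa3, Zp3 and Gdf9, 5 had an H3K4me3 promoter peak in c13 (70.9% of all protein-coding genes), 5 in c34 (65.0%), 3 in E18.5 (60.6%), where Dppa3 and Zp3 had none, and 5 in GV oocytes (72.5%). Of 9 ovarian somatic marker genes, 7 had one in c13, 6 in c34, 5 in E18.5 and 5 in GV oocytes, and Fshr had none in any of the 4 lists. H3K27me3 lay at 2 of the 5 germ cell and 9 of the 9 somatic promoters in c7 (43.1% of all genes), at 4 and 8 in c13 (57.1%), at 2 and 9 in c34 (40.4%), at 2 and 9 in E18.5 (36.5%) and at 2 and 8 in GV oocytes (25.9%).

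Promoters differed in their sequence as well as in their marks. A promoter is taken here as the 1 kb on each side of the annotated start, and RefSeq's promoter table for GRCm38.p6, with 250 bases before and 50 bases after each start, held 6 of the 7 genes and not Taf4b. Over these 300 bases the number of CpG dinucleotides was 17 in Sohlh2, 16 in Figla, 14 in Sohlh1, 13 in Nobox, 4 in Lhx8 and 4 in Tbpl2, against a median of 13 over 21045 promoters. The 250 bases before the start are shown for Tbpl2, the one gene among the 7 whose promoter lacked H3K4me3 in some lists, for Lhx8, which has as few CpG, and for Sohlh2, the member richest in CpG, with CpG in capitals. They lie at chr2:24096596-24096845 on the minus strand for Tbpl2, chr3:154330561-154330810 on the minus strand for Lhx8 and chr3:55181794-55182043 on the plus strand for Sohlh2, and each runs 5′ to 3′ towards the start.
Tbpl2: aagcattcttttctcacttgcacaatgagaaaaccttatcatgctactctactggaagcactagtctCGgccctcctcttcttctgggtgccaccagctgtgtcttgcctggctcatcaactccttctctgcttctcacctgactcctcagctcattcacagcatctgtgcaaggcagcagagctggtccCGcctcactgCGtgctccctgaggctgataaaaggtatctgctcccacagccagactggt
Lhx8: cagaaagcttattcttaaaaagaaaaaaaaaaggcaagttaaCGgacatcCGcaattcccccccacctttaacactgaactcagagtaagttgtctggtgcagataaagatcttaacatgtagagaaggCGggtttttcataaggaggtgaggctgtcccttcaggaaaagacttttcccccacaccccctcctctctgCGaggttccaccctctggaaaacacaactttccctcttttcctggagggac
Sohlh2: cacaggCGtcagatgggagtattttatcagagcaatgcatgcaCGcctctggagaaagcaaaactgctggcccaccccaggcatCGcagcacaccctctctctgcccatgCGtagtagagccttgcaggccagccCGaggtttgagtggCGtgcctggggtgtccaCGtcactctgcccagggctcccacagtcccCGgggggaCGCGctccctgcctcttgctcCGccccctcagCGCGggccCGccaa
These stretches held 3 CpG in Tbpl2, 4 in Lhx8 and 14 in Sohlh2.

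E-boxes, searched as CANNTG on both strands with overlaps allowed, numbered 5 in Sohlh1, 5 in Tbpl2, 4 in Figla, 2 in Nobox, 1 in Sohlh2 and 0 in Lhx8 over the 300 bases. At least 1 such site occurred in 69.0% of all promoters of this length. The form CACGTG, which is one of the CANNTG sequences, was found 3 times in Sohlh1, with first bases at positions -231, -211 and -192 from the start, and in none of the other 5 promoters. At least 1 CACGTG was present in 7.91% of all promoters and 3 or more in 0.109%. The promoter of Sohlh1 is shown for these sites, in capitals, at chr2:25847249-25847498 on the minus strand.
Sohlh1: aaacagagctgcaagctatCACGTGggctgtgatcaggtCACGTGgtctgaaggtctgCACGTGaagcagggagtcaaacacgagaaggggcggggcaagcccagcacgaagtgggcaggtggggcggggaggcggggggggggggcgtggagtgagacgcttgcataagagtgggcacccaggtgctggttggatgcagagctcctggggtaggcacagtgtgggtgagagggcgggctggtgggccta
The homeodomain-type sequences TAATTA and TAATTG and the TATA-box sequence TATAAA, searched on both strands, had 0 matches in the 6 promoters, and occurred in 4.47%, 6.85% and 12.7% of all promoters. The GC-box sequence GGGCGG occurred 4 times in Figla, 3 times in Sohlh1 and once in Sohlh2, and was present in 46.7% of all promoters.

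Across the 3 marks, H3K4me3 was the one found at most of these genes in every list. H3K4me3 lay at 6 of 7 promoters in c13 (70.9% of all protein-coding genes), 7 of 7 in c34 (65.0%), 6 of 7 in E18.5 (60.6%) and 7 of 7 in GV oocytes (72.5%). Nobox, Figla, Sohlh1, Sohlh2, Lhx8 and Taf4b were marked in all 4 lists, as were 54.2% of all genes. H3K27me3 lay at 5 of 7 promoters in c7 (43.1% of all genes), 4 in c13 (57.1%), 4 in c34 (40.4%), 3 in E18.5 (36.5%) and 3 in GV oocytes (25.9%). The genes behind these counts changed from list to list, and no gene among the 7 was marked in all 5, against 11.0% of all genes. H3K36me3 covered 20% or more of the body of 4 genes in c13 (67.8% of all genes), 7 in c34 (63.5%), 2 in E18.5 (22.1%) and 5 in GV oocytes (62.2%). Counted at the promoter instead, H3K36me3 lay at 4 genes in c13 (66.9% of all genes), 7 in c34 (58.7%), 2 in E18.5 (21.0%) and 4 in GV oocytes (54.7%), where Tbpl2 no longer counted. Taf4b has no listed start, so either gene end counted, and its c34 and GV calls rest on the higher-coordinate end. With its lower-coordinate end alone, a choice made after the data were seen, the promoter count of H3K36me3 falls to 6 in c34 and 3 in GV. The c13 and E18.5 counts stay the same. Counted over the body instead, H3K27me3 covered the same genes as at the promoter, 5 in c7 (41.4% of all genes), 4 in c13 (54.2%), 3 in E18.5 (35.3%) and 3 in GV oocytes (26.6%), except that Lhx8 dropped out in c34 and left 3 (39.5%).

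**Figure D1:**
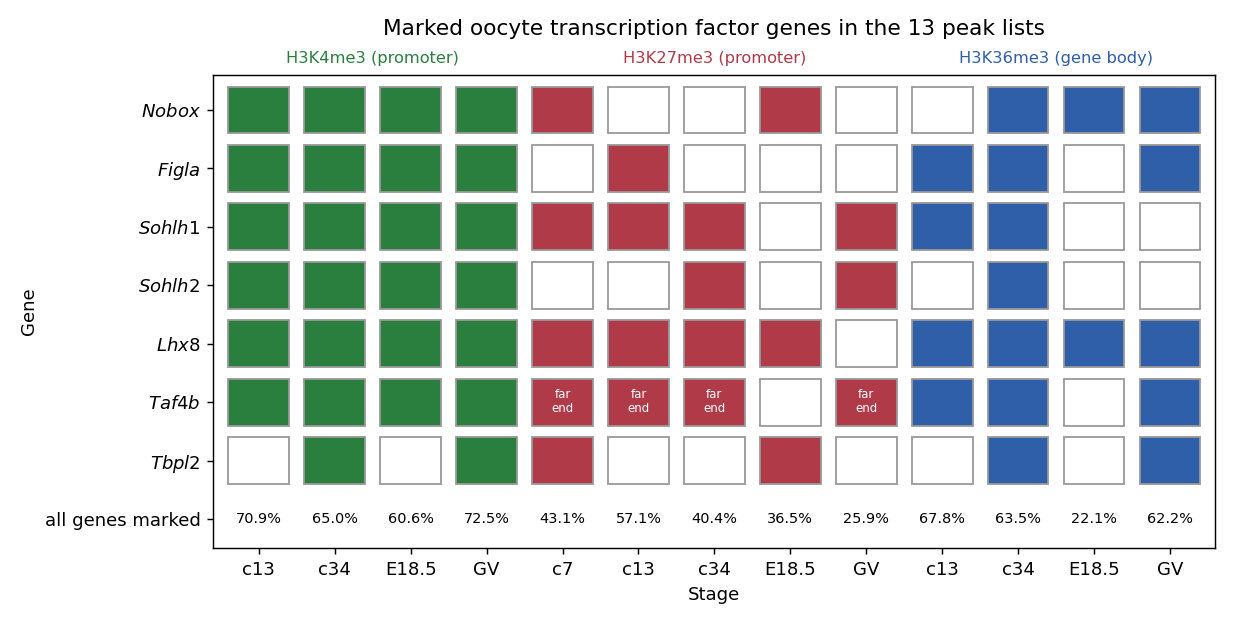
Each row is a gene and each column a peak list, grouped by mark, and a filled square marks a promoter peak (H3K4me3, H3K27me3) or a gene body covered to 20% or more (H3K36me3); the bottom row gives the percentage of 21631 genes marked by the same rule. H3K4me3 is missing only for Tbpl2 in c13 and E18.5, no row of H3K27me3 is filled throughout, and "far end" marks the H3K27me3 calls of Taf4b at its higher-coordinate end.

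Tbpl2 (chromosome 2, 24071366 to 24096595, minus strand) was the one member without H3K4me3 at its start in part of the series. The peak at its start was 3 kb wide in c34 (24095001 to 24098000) and 9 kb wide in GV oocytes (24094001 to 24103000). Neither c13 nor E18.5 had a peak there: the nearest peak in both lists was the same 2 kb, from 20.6 to 22.6 kb downstream of the start and inside the gene. This pattern, present in c34 and GV and absent from c13 and E18.5, was shared by 2.97% of all genes. Among 4091 promoters with 4 to 9 CpG, as Tbpl2 has, H3K4me3 was present at 53.2% in c13, 42.9% in c34, 30.2% in E18.5 and 57.6% in GV oocytes, and 7.33% had the pattern of Tbpl2. Lhx8, in the same CpG class, was marked at all 4 stages.

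Taf4b (chromosome 18, 14783201 to 14960424), the TFIID subunit gene, is the longest of the 7 at 177 kb. No start is listed for it, so either annotated end counted, and in all 4 lists a peak lay over its lower-coordinate end. This peak was 7 kb wide in c13, 6 kb in c34, 9 kb in E18.5 and 19 kb in GV oocytes. Outside the gene this peak extended 5.20 kb at c13, 1.20 kb at c34, 2.20 kb at E18.5 and 16.2 kb in GV oocytes. Further peaks lay inside the gene 112.8 kb from that end in c13 (3 kb wide) and E18.5 (6 kb wide), and 61.8 kb from it in GV oocytes (5 kb wide). In c34 no other H3K4me3 peak lay inside Taf4b.

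Among the helix-loop-helix genes, the start peak of Figla (chromosome 6, 86016494 to 86020996, plus strand) was 6 kb wide in c13, 5 kb in c34, 18 kb in E18.5 and 17 kb in GV oocytes. The broad peaks of the animal oocytes extended in opposite directions. In E18.5 the peak ran 14.8 kb downstream, past the 4.5 kb gene and over the start of its neighbour Add2, a cytoskeletal adducin gene, and only 3.19 kb upstream. In GV oocytes it ran 15.2 kb upstream and 1.81 kb downstream. In c34 and c13 the region downstream was a separate peak, of 15 kb and 11 kb, that began 6.81 kb from the Figla start in both lists. The E18.5 width stood at the 96.6th percentile of the start peaks of that list, the highest place of any member.

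Sohlh1 (chromosome 2, 25842995 to 25847248, minus strand) had a start peak of 16 kb in c13, 3 kb in c34, 7 kb in E18.5 and 19 kb in GV oocytes. The upstream edge was identical, 4.75 kb before the start, in c13, E18.5 and GV oocytes and lay 0.752 kb before it in c34, so that the 3 CACGTG sites shown above fell inside the peak at all 4 stages. The downstream edge lay 11.2 kb after the start in c13, 2.25 kb in c34, 2.25 kb in E18.5 and 14.2 kb in GV oocytes, and the 2 wider peaks therefore covered the whole 4.25 kb gene. Sohlh2 (chromosome 3, 55182044 to 55209957, plus strand), which encodes the partner of Sohlh1, had peaks of 4 kb in c13, 5 kb in c34, 5 kb in E18.5 and 12 kb in GV oocytes. Its upstream edge was 1.04 kb before the start in c13, c34 and GV oocytes and 3.04 kb in E18.5, and the GV peak was the one that reached far into the gene, by 11.0 kb.

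Of the homeobox genes, Nobox (chromosome 6, 43303674 to 43310072, minus strand) had a start peak of 4 kb in c13, 14 kb in c34, 11 kb in E18.5 and 9 kb in GV oocytes. The peaks in c34 and E18.5 shared their upstream edge, 8.45 kb before the start, while that of GV oocytes lay at 4.45 kb and that of c13 at 2.45 kb. GV oocytes had a second peak of 9 kb that began 9.55 kb after the start, beyond the gene. Lhx8 (chromosome 3, 154306288 to 154330560, minus strand) had a start peak of 28 kb in c13, 8 kb in c34, 6 kb in E18.5 and 17 kb in GV oocytes. The excess width lay upstream: the peak reached 21.4 kb before the start in c13 and 14.4 kb in GV oocytes, but 4.44 kb in c34 and 1.44 kb in E18.5, and its downstream edge stayed between 2.56 and 6.56 kb after the start.

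**Figure D2:**
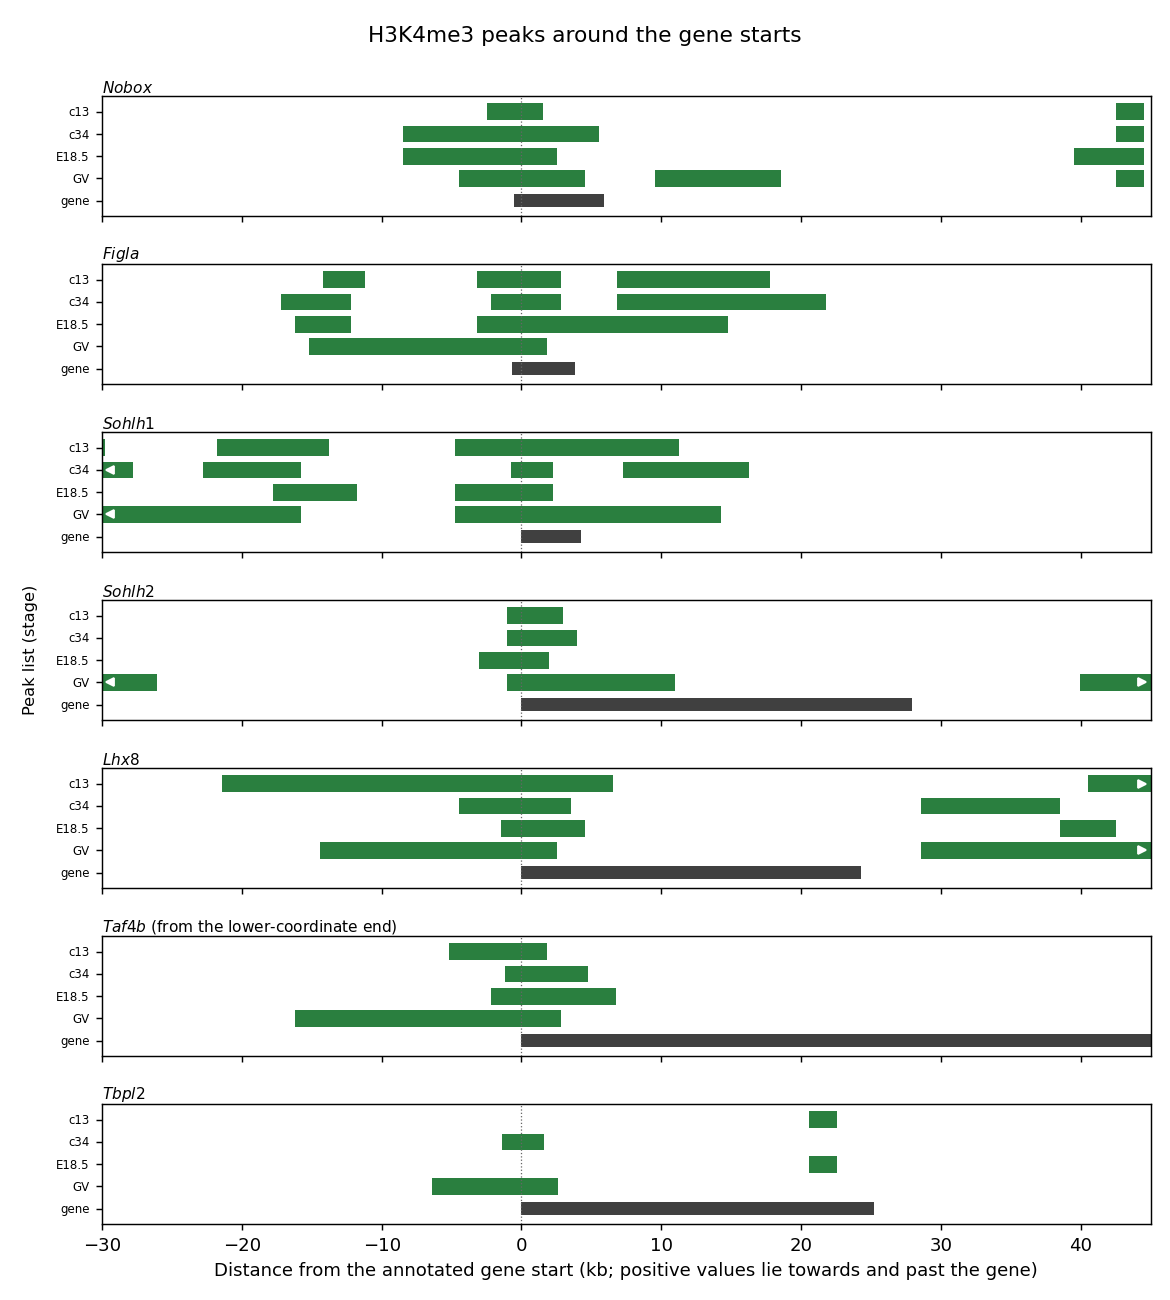
H3K4me3 peaks of the 4 stages (rows) along each of the 7 genes, as distance in kb from the annotated start, with positive values towards and past the gene and Taf4b drawn from its lower-coordinate end. The Figla peak reaches 14.8 kb downstream in E18.5 and 15.2 kb upstream in GV oocytes, and Tbpl2 has no peak at its start in c13 and E18.5.

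The start peaks of these genes were mostly narrower in c34 cells than in GV oocytes, as were those of most genes. On the log2 scale the width in c34 over that in GV oocytes was -2.66 for Sohlh1, -1.77 for Figla, -1.66 for Taf4b, -1.58 for Tbpl2, -1.26 for Sohlh2 and -1.09 for Lhx8, and only Nobox was wider in c34, by 0.64. The median of the 7 was -1.58, against -0.58 over 10305 genes with a start peak at both stages, of which 61.6% were narrower and 28.9% wider in c34. Widths at the 7 starts ran from 3 to 14 kb in c34 and from 9 to 19 kb in GV oocytes, a narrow part of the GV range, where the central 50% of genes ran from 6 to 33 kb with a median of 15 kb.

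Between c13 and E18.5, most members were narrower in c13 while most genes were wider there, with a median log2 ratio of 0.58 over 10064 genes, 62.2% wider and 23.2% narrower. Of the 6 members with a start peak in both lists, 2 were wider in c13, Lhx8 by 2.22 and Sohlh1 by 1.19, and 4 were narrower, with log2 ratios of -1.58 for Figla, -1.46 for Nobox, -0.36 for Taf4b and -0.32 for Sohlh2. The differences at Taf4b and Sohlh2 amount to 2 kb and 1 kb, that is 2 steps and 1 step of the grid. The median of the 6 was -0.34.

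Between the later and the earlier stage, cultured cells and animal oocytes differed at several starts. In c34 over c13 the log2 ratio was 1.81 for Nobox and 0.32 for Sohlh2, and -0.22 for Taf4b, -0.26 for Figla, -1.81 for Lhx8 and -2.42 for Sohlh1, with a median of -0.06 over all genes. In GV over E18.5 it was 1.50 for Lhx8, 1.44 for Sohlh1, 1.26 for Sohlh2 and 1.08 for Taf4b, and -0.08 for Figla and -0.29 for Nobox, with a median of 1.32 over all genes. Sohlh1 and Lhx8 were therefore narrower in c34 than in c13 and wider in GV than in E18.5 oocytes.

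**Figure D3:**
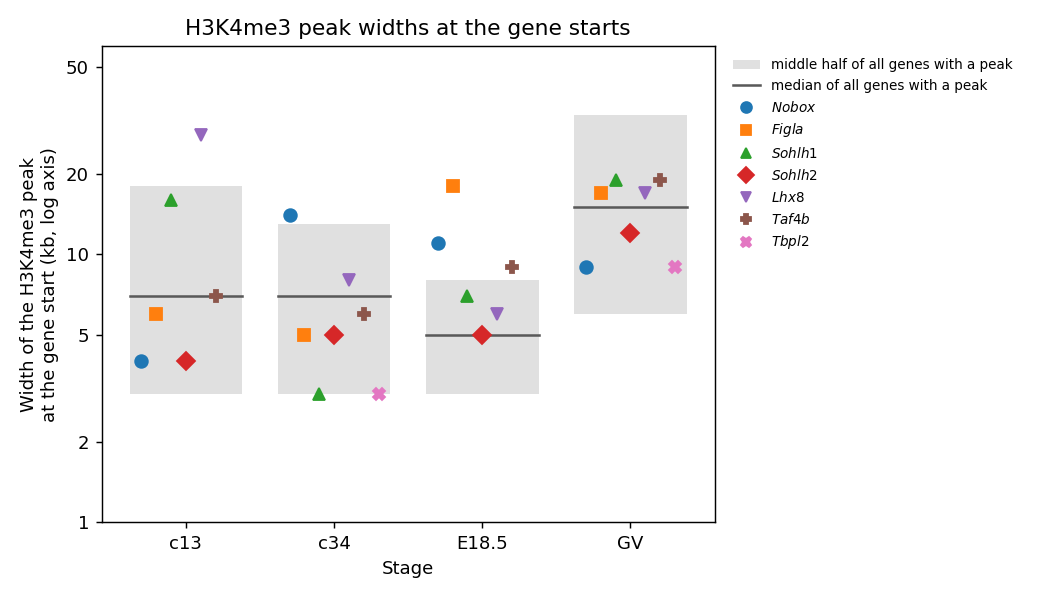
Width in kb (log axis) of the H3K4me3 peak at each gene start at the 4 stages; symbols are genes, grey boxes span the middle 50% of all genes with a start peak and lines mark their median. The 7 genes lie between 9 and 19 kb in GV oocytes. In E18.5 Figla at 18 kb, Nobox at 11 kb and Taf4b at 9 kb lie above the grey box.

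H3K27me3 fell into 5 different sets of stages over the 7 genes, with Nobox and Tbpl2 in one and Sohlh1 and Taf4b in another. Figla, Sohlh1 and Taf4b had it in c13 and not E18.5 (29.9% of all genes), Nobox and Tbpl2 in E18.5 and not c13 (9.31%), Lhx8 in c34 and not GV (17.2%), and no member in GV and not c34 (2.64%). Tbpl2 and Nobox were both marked in c7 and E18.5 and in none of c13, c34 and GV, as were 2.67% of all genes. The Tbpl2 domain was 50 kb wide in c7 and 720 kb in E18.5, and both began at the same edge 36.6 kb downstream of the start, so that the whole gene lay inside. At the 3 other stages the nearest domain was at least 173 kb from the Tbpl2 start. The Nobox domain was 150 kb wide in c7 and 190 kb in E18.5. In c7 it ended 0.446 kb upstream of the start, within 1 step of the 10 kb grid, and it extended 149.6 kb downstream over the gene and a cluster of olfactory receptor genes. In E18.5 it reached 30.4 kb upstream. The nearest domain began 29.6 kb downstream of the Nobox start in c34 and 39.6 kb downstream in GV oocytes, and lay 579.6 kb away in c13.

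Sohlh2 and Figla differed from this pattern and from each other. Sohlh2 was marked in c34 and GV oocytes and in none of the other lists, as were 1.04% of all genes. Its domain was 610 kb wide in c34 and 160 kb in GV oocytes, and both began at the same edge 42.0 kb upstream of the start. Figla was marked in c13 alone, as were 11.8% of all genes, by a domain of 560 kb. In c34 and GV oocytes the nearest domains, 40 kb and 20 kb wide, both ended 17.2 kb upstream of the Figla start.

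Sohlh1 and Taf4b were marked at every stage but E18.5, as were 3.62% of all genes. The Sohlh1 domain was 350 kb in c7, 940 kb in c13 and 340 kb at both c34 and GV. The c34 and GV domains had the same coordinates, 25570001 to 25910000 on chromosome 2, and overlapped 20 other genes, with the starts of 19 inside. In E18.5 the nearest domain was 517.2 kb away. Lhx8 was marked at every stage but GV, as were 6.37% of all genes, but in very different widths: 430 kb in c7, 2610 kb in c13, 620 kb in E18.5 and 10 kb in c34. The c34 domain was a single grid step, from 9.44 kb upstream to 0.559 kb downstream, at the 0.642nd percentile of domain widths over gene starts in that list, and it covered 2.31% of the gene body. The H3K4me3 peak of 8 kb at the same start overlapped it over 62.5% of its length. In GV oocytes the nearest domain was 60.6 kb from the Lhx8 start.

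At Taf4b the lower-coordinate end, where the H3K4me3 peak lay, had no H3K27me3 in any list, although a 60 kb domain ended 3.20 kb outside it in c34. A domain instead covered the other end, and it began 126.8 kb from the lower-coordinate end in c7 (680 kb wide), c13 (720 kb), c34 (90 kb) and GV oocytes (60 kb), the same edge in the 4 lists, and covered 28.5% of the gene. In E18.5 no domain overlapped the gene, and the nearest one lay 276.8 kb from the lower-coordinate end. Counting Taf4b by its lower-coordinate end alone, a choice made after the data were seen, leaves 4 marked genes in c7, 3 in c13, 3 in c34, 3 in E18.5 and 2 in GV oocytes. Over the 17274 genes with a listed start the mark lay at 40.9% in c7, 55.5% in c13, 38.4% in c34, 34.9% in E18.5 and 24.4% in GV oocytes.

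H3K4me3 and H3K27me3 were both called at 4 members in c13, Figla, Lhx8, Sohlh1 and Taf4b (46.3% of all genes), at 4 in c34, Lhx8, Sohlh1, Sohlh2 and Taf4b (22.6%), at 2 in E18.5, Lhx8 and Nobox (17.6%), and at 3 in GV oocytes, Sohlh1, Sohlh2 and Taf4b (14.1%). The calls of Taf4b lay at opposite ends of the gene, and for genes with no listed start the share of all genes counts such cases too. The lists come from many cells and do not show whether both marks were on the same allele or in the same cell.

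H3K36me3 covered the bodies of all 7 genes in c34 and of 5 in GV oocytes, Nobox, Figla, Lhx8, Taf4b and Tbpl2. Both stages were marked at 57.0% of all genes, and c34 without GV at 6.46%, among them Sohlh1 and Sohlh2. The domain over Sohlh2 in c34 was 100 kb wide, from 72.0 kb upstream to 28.0 kb downstream of the start, and thus covered 100% of the body. In GV oocytes the nearest domain was 40 kb wide and ended 32.0 kb upstream of the start. Over Sohlh1 the c34 domain was 320 kb wide, and in GV oocytes the nearest domain ended 42.8 kb upstream of its start. Both genes lay under H3K27me3 in c34 and GV oocytes.

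Tbpl2 had H3K36me3 at the same stages as H3K4me3: its body was covered to 100% in c34 and 73.9% in GV oocytes and lay outside any domain in c13 and E18.5. The c34 domain was 100 kb and the GV domain 90 kb wide, with the same downstream edge 96.6 kb from the start. The c34 domain reached 3.41 kb upstream of the start and the GV domain began 6.60 kb inside the gene. Absence at both earlier stages and presence at both later ones was found for H3K36me3 at 5.62% of all genes, and for both marks together at 43 genes, 0.199%. Of these 43, 5 genes also had H3K27me3 in c7 and E18.5 alone (0.0231% of all genes): Tbpl2, Bmp15, the oocyte growth factor gene, Nlrp2, Nlrp9a and Cldn34b2. This combination was put together after the values of Tbpl2 were seen.

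The other domains were of 2 kinds. Taf4b was covered to 96.2% in both c34 and GV oocytes by domains of 270 kb and 260 kb, which began at the same edge 6.80 kb inside the gene beyond the H3K4me3 peak at that end. Nobox lay under 400 kb in c34, 220 kb in E18.5 and 260 kb in GV oocytes, with a common downstream edge 39.6 kb from the start in c34 and GV oocytes. Figla lay under 670 kb in c34 cells and 710 kb in GV oocytes, and Lhx8 under 390 kb and 340 kb. In c13, by contrast, Figla, Sohlh1, Lhx8 and Taf4b lay under domains of 3900 kb, 2410 kb, 3530 kb and 3890 kb, and 79.8% of the length of that list was in domains of 1 Mb or more. In E18.5 the Lhx8 domain was 2360 kb wide. Figla, Sohlh1 and Taf4b were thus covered in c13 and not E18.5, as were 55.0% of all genes, and Nobox in E18.5 and not c13, as were 9.24%. Without domains of 1 Mb or more, 0 of the 7 genes were covered in c13 and 1, Nobox, in E18.5, so apart from Nobox the calls at these stages rest on domains of that size. Lhx8 was the one member covered at all 4 stages, as were 8.78% of all genes.

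**Figure D4:**
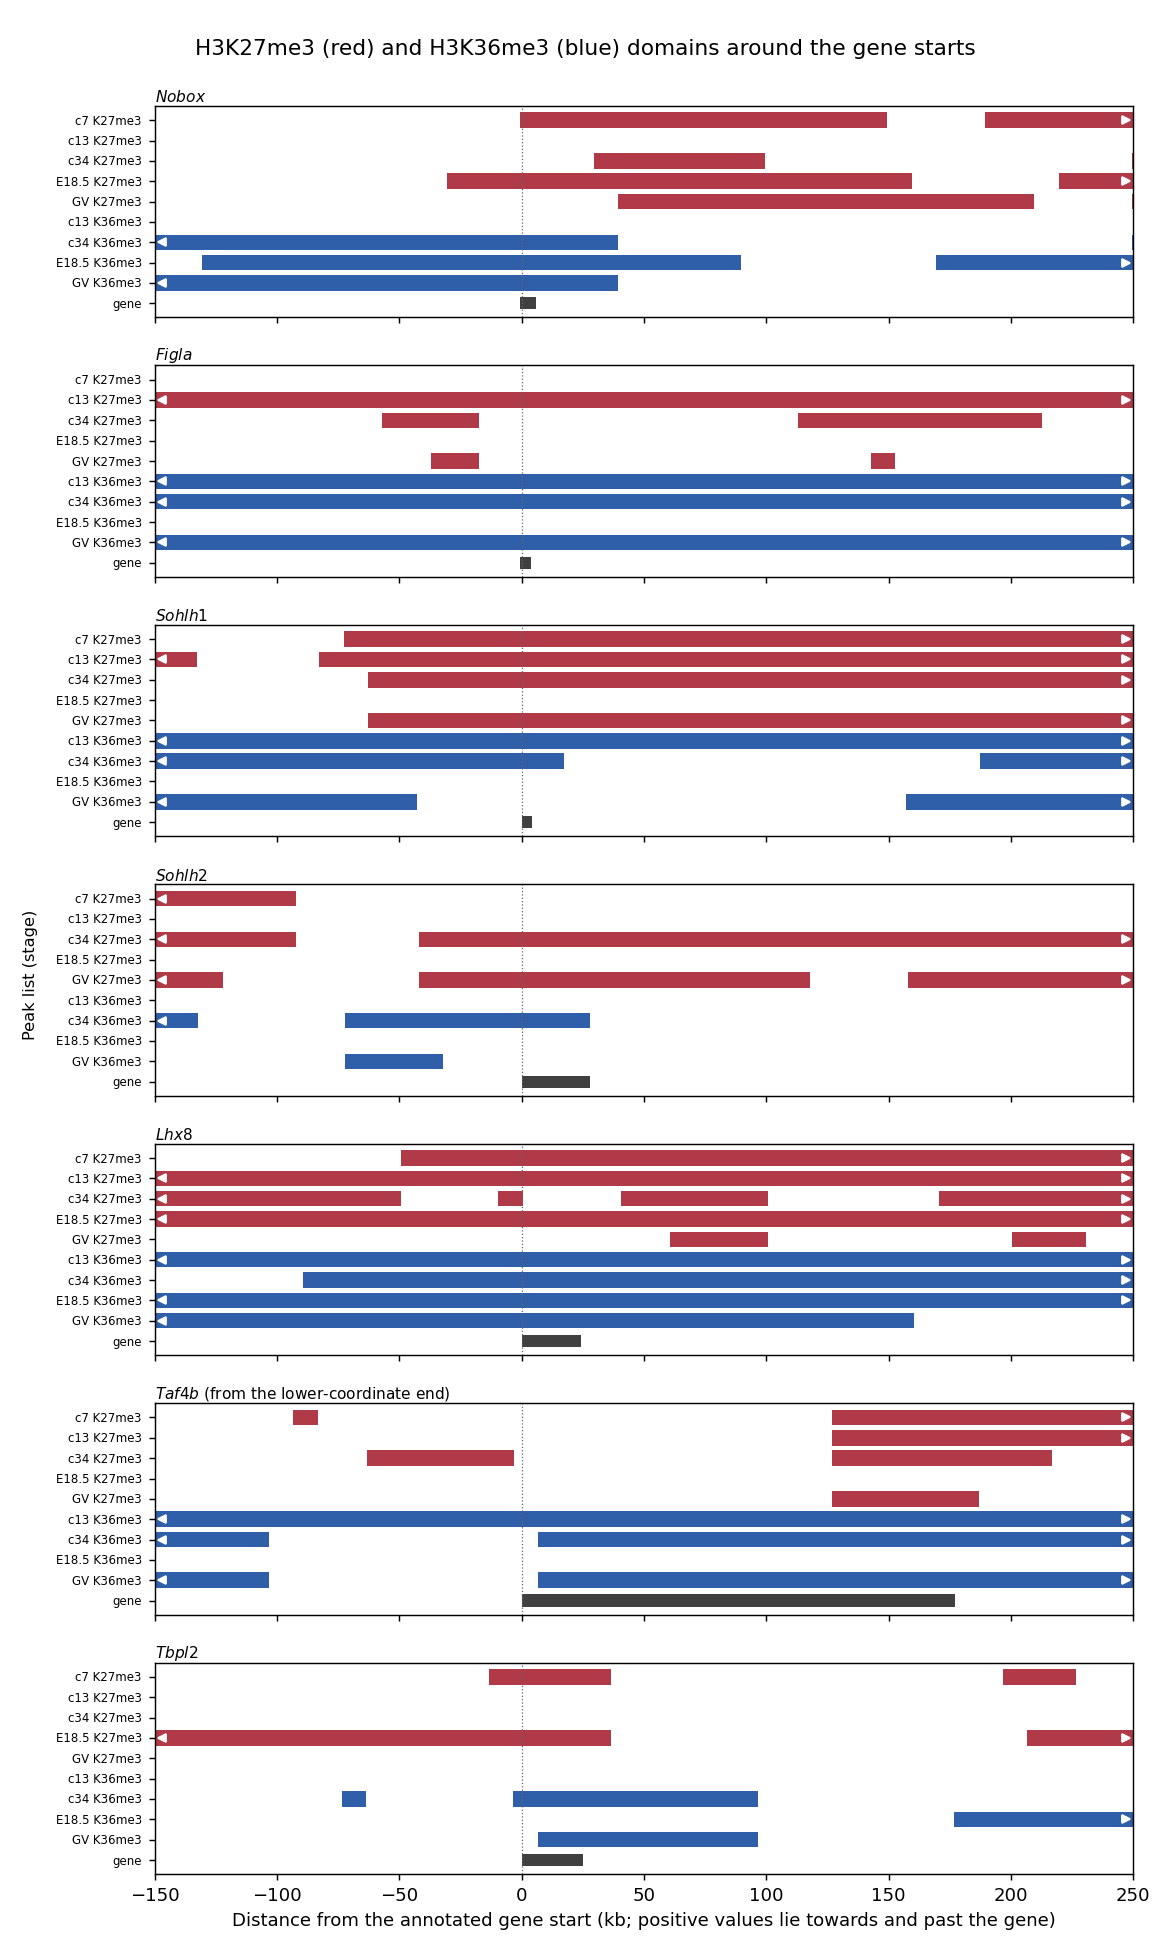
H3K27me3 (5 stages) and H3K36me3 (4 stages) domains along each of the 7 genes, as distance in kb from the annotated start, with arrows where a domain runs beyond the plotted range. The H3K27me3 domains of Sohlh1 in c34 and GV oocytes begin at the same upstream edge, and Tbpl2 is under H3K27me3 in c7 and E18.5 and under H3K36me3 in c34 and GV oocytes.

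Some domains had the same edge in both lists of a pair. Over the members with 1 domain on the gene in each list, 4 of 6 H3K27me3 edges at Sohlh1, Sohlh2 and Taf4b were at the same base in c34 and GV oocytes, against 30.7% of edges over 5287 genes chosen the same way. In E18.5 and c7, 2 of 6 edges at Nobox, Lhx8 and Tbpl2 were shared, against 37.9% over 6312 genes. For H3K36me3 in c34 and GV oocytes, 3 of 10 edges at 5 members were shared, against 42.2% over 12564 genes. Neighbouring genes can lie under the same domain, so these genes are not independent. On a grid of 10 kb, edges that differ by less than a step can fall on the same base. H3K27me3 and H3K36me3 each covered 20% or more of the body of Figla, Sohlh1, Lhx8 and Taf4b in c13 (46.1% of all genes). In c34 this held for Sohlh1, Sohlh2 and Taf4b (18.4%). In E18.5 it held for Nobox and Lhx8 (8.61%) and in GV oocytes for Taf4b (9.21%).

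Genes known from mouse studies to act downstream of these factors, 16 in number and including the zona pellucida genes Zp1, Zp2 and Zp3, Gdf9, Bmp15 and Nlrp5, had H3K4me3 at fewer promoters in c13 and E18.5 than in c34 and GV oocytes. H3K4me3 lay at 7 of 16 promoters in c13 (70.9% of all genes), 15 in c34 (65.0%), where Nlrp14 had none, 4 in E18.5 (60.6%) and 14 in GV oocytes (72.5%), where Nlrp14 and Npm2 had none. H3K27me3 lay at 10 in c7 (43.1%), 12 in c13 (57.1%) and 10 in E18.5 (36.5%). It lay at 1 in c34, Pou5f1 (40.4%), and at 0 in GV oocytes (25.9%). Of the 7 factor genes, 4 had it in c34 and 3 in GV oocytes, counts too small to set apart from the same shares of all genes. With Taf4b counted by its lower-coordinate end alone they are 3 and 2, and the c34 call of Lhx8 is a single 10 kb step. H3K36me3 covered 9 of the 16 bodies in c13 (67.8%), 15 in c34 (63.5%), 3 in E18.5 (22.1%) and 12 in GV oocytes (62.2%). The start peak of Bmp15 was 11 kb wide in c34 and 11 kb in GV oocytes, that of Nlrp5, a gene of the oocyte's subcortical complex, 15 kb in c34 cells and 11 kb in GV oocytes, and neither gene had a peak in c13 or E18.5. That of Kit, the receptor that drives oocyte growth, was 5 kb in c13, 20 kb in c34, 7 kb in E18.5 and 142 kb in GV oocytes.

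**Figure D5:**
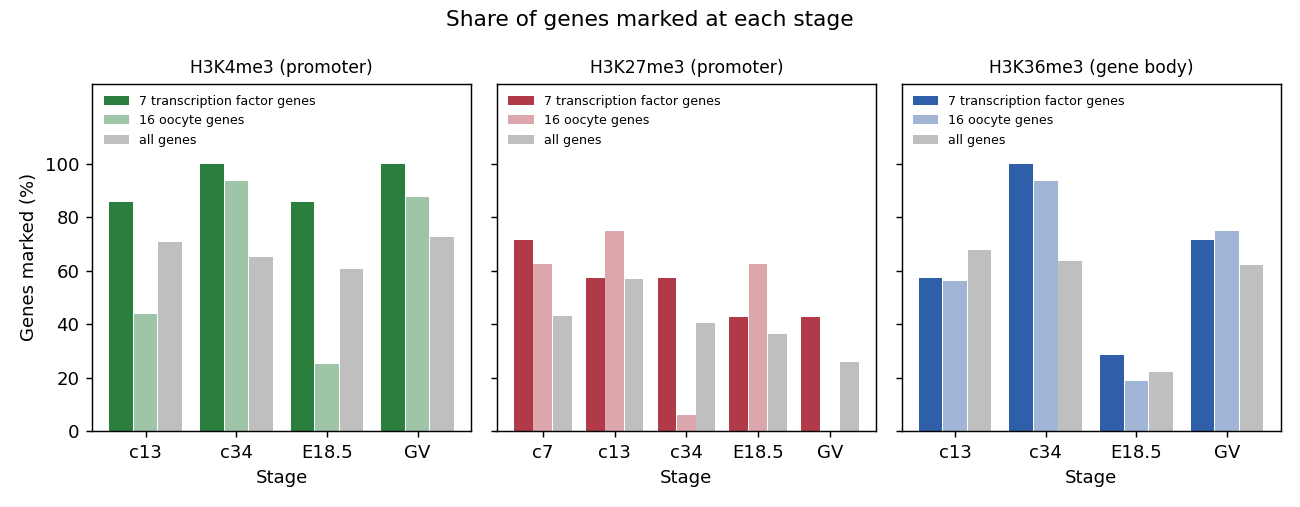
Percentage of genes marked at each stage for the 7 transcription factor genes, 16 oocyte genes downstream of them and all 21631 genes, in 1 panel per mark. The 16 oocyte genes have H3K27me3 at 1 promoter in c34 and 0 in GV oocytes. Of the 7 factor genes 4 and 3 are marked, Taf4b among them at its higher-coordinate end only, beside 40.4% and 25.9% of all genes.

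Genes whose products work with the 7 factors or belong to their families were counted in the same way. H3K4me3 lay at 70.9% of all genes in c13, 65.0% in c34, 60.6% in E18.5 and 72.5% in GV oocytes. Of 6 genes of the basal machinery, Taf4, Tbp, Tbpl1, Gtf2a1, Gtf2a1l and Gtf2a2, all 6 were marked in c13, c34 and E18.5 and 5 in GV oocytes, where Tbpl1 had no peak. Tbp, the general TATA-binding protein gene and the paralog of Tbpl2, had a start peak of 9 kb in c13, 5 kb in c34, 4 kb in E18.5 and 6 kb in GV oocytes, and so was marked at the stages where Tbpl2 was not. Taf4, the paralog of Taf4b, had a peak of 69 kb in c13, 4 kb in c34, 5 kb in E18.5 and 4 kb in GV oocytes. H3K27me3 lay at 1 of these 6 promoters in c7 (43.1% of all genes), 3 in c13 (57.1%), 1 in c34 (40.4%), 1 in E18.5 (36.5%) and none of 6 in GV oocytes (25.9%). H3K36me3 covered 5 bodies in c13 (67.8% of all genes), 6 in c34 (63.5%), 2 in E18.5 (22.1%) and 6 in GV oocytes (62.2%). Stat3, Dynll1 and Sub1, which together with several of the members have been used to induce oocyte-like growth in mouse stem cells, had H3K4me3 in all 4 lists. Beside the same shares of all genes, H3K27me3 lay at 2 of these 3 in c7, 3 in c13, 0 in c34, 2 in E18.5 and 0 in GV oocytes. Bodies under H3K36me3 numbered 3 in c13, 3 in c34, 0 in E18.5 and 3 in GV oocytes. The family genes Lhx6, Tcf3, Tcf12, Tcf4 and Msc had H3K4me3 at 5 of 5 promoters in all 4 lists. H3K27me3 lay at 1 of these 5 in c7 (Lhx6), 4 in c13, 4 in c34, 1 in E18.5 (Lhx6) and 2 in GV oocytes (Lhx6 and Tcf4). H3K36me3 covered the bodies of 4 of them in c13, 3 in c34, 2 in E18.5 and 2 in GV oocytes, Tcf3 and Tcf12.

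For each member the most similar genes over the 13 lists were found by the mean absolute difference in the share of the start window or gene body covered, in percentage points, leaving out genes within 1 Mb. Figla came closest to other genes, with Cfap20 (1.34 points), B9d1 (2.05) and Imp4 (2.10). Sohlh1 was nearest to Trim46 (1.94), Krtcap2 (4.13) and Chpf2 (6.35), Taf4b to Ubp1 (3.13), Yipf2 (3.16) and Arl6ip1 (3.26), and Sohlh2 to Ube2d1 (3.84), Ap1ar (6.89) and Myo5c (10.7). Tbpl2 was nearest to Calb1 (4.78), Cldn34b2 (5.69) and Siah2 (6.31), Lhx8 to Gfra1 (4.92), Hsf4 (5.93) and Wnk2 (6.25), and Nobox to Dennd11 (7.01), Arhgap11a (8.71) and Taf9b (8.79). Promoter calls were the same in 9 of the 13 lists for Ubp1, Yipf2 and Arl6ip1 beside Taf4b. They were the same in 11 for Calb1 and 10 for Siah2 beside Tbpl2, and in 12 or 13 for the other genes named. The median difference over all genes lay between 35.4 and 49.1 points. The members were further from each other than from these genes: the closest pair was Figla and Taf4b at 12.6 points, Nobox and Tbpl2 differed by 28.6, Lhx8 and Nobox by 31.6 and Sohlh1 and Sohlh2 by 33.4 points. Because the closest of all genes was picked each time while a member has 6 others to be close to, these distances describe the genes and are no measure of relatedness.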

How the data were processed

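The deposited files were 13 peak lists in which the values are positions of peaks in base pairs, an other unit than read counts. Per the file headers, every list has columns for chromosome, start and end. The first base was numbered 0 and ends were inclusive, and coordinates are given here 1-based on GRCm38. The submitters' processing notes name the peak callers MACS2 2.1.1 and SICER 0.0.41, the aligner Bowtie2 2.3.4.1, the trimmers cutadapt 1.9.1 and Trim Galore 0.4.1, and deepTools 3.5.0, Picard 2.18.23, SAMtools 1.7 and bedtools 2.29.2, with the builds GRCm38.p3 and mm10. Caller and threshold of each list, any use of input and any pooling of replicates, all of which bear on width, are not stated in these notes or labels. No list stood for the input libraries, which were not used.

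Gene positions came from RefSeq's GRCm38.p6 tables, with 21631 protein-coding genes. A start and strand were listed for 17274 genes; for the other 4357, Taf4b included, either gene end counted for promoter calls and the lower-coordinate end for similarity, and they were left out of the background of widths. As a check of build and starts, H3K4me3 peaks within 1 kb of a listed start were counted. They were found at 70.5% of 17274 genes in c13, 64.7% in c34, 60.7% in E18.5 and 71.9% in GV oocytes. For points 100 kb away the shares were 25.8%, 22.3%, 14.0% and 35.9%. A promoter was marked by an overlap of 1 bp with 1 kb on each side of the start, a body from 20% coverage, and counts were set beside the share of all genes called by the same rule. For similarity, coverage was taken in 5 kb on each side of the start for H3K4me3 and H3K27me3 and in the body for H3K36me3. All members were named, with the 3 genes most like each, and genes of the related and marker lists. The members and lists were chosen with earlier results of these data known. Calls and coverage were tested on simulated data. Alternatives changed the window, the overlap, the body share, the peaks used and the joining of gaps up to 3 kb. The software was pandas 2.3.3, numpy 2.4.6 and matplotlib 3.10.9 under Python 3.11.15.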

Additional observations from a re-analysis of the deposited data

Results flagged for a closer look

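At 4 of the 6 members with a start peak in all 4 H3K4me3 lists, the width moved in opposite directions with stage in cultured cells and in animal oocytes, as it did at 37.0% of 9032 genes with such peaks. The log2 ratio of widths in c34 over c13 was 1.81 for Nobox, -2.42 for Sohlh1, -1.81 for Lhx8 and -0.22 for Taf4b. In GV over E18.5 oocytes it was -0.29 for Nobox, 1.44 for Sohlh1, 1.50 for Lhx8 and 1.08 for Taf4b. The difference was not tested, since each stage has 1 list, and the changes of Taf4b in c34 and of Nobox in GV oocytes amount to 1 kb and 2 kb.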

How the results depend on the processing

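Of 91 recomputed counts of members with a promoter peak, 89 stayed within 1.5 times the count given, as did 34 of 36 counts of marked bodies and 13 of 13 counts of the related lists. All 4 exceptions came from leaving out peaks of 1 Mb or more: H3K36me3 then lay at 0 promoters and 0 bodies in c13 and at 1 promoter and 1 body in E18.5, because the domains over the lost genes are themselves that wide. No H3K4me3 peak was that wide, so this setting could not change the H3K4me3 counts and tests nothing there. With counts this small, falls from 7 to 5 or from 3 to 2 also stayed within 1.5 times. Leaving out peaks of 1 Mb or more also removed Lhx8 from H3K27me3 in c13, at promoter and body. Asking for 50% of the body removed Taf4b from the bodies under H3K27me3 in c7, c13, c34 and GV oocytes. Dropping the peaks narrower than the median of each list removed Sohlh1 and Tbpl2 from H3K4me3 in c34 and Nobox and Tbpl2 in GV oocytes. It also removed Tbpl2 in c7, Lhx8 in c34 and Taf4b in GV oocytes from H3K27me3, and Tbpl2 in GV oocytes from the bodies under H3K36me3. The combination of marks described for Tbpl2 was therefore not kept under this setting. Joining H3K4me3 peaks across gaps of up to 3 kb could change no width, since the smallest gap in each of the 4 lists is 4 kb, and so tests nothing. No paired analysis was possible because the lists are not given per replicate, and for the same reason no list could be recomputed without one of its libraries. Depth is unknown, so an absent peak does not show that a mark is absent. The grid can hide differences smaller than 1 kb in H3K4me3 and smaller than 10 kb in the others.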
